A study of Rattus norvegicus with 4 samples.

Results

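The 44 genes described here are a module of hypoxia and glycolysis genes, read in vessels of male rats with and without a deletion of protein kinase C beta. They were chosen by symbol, with earlier results of these data known. They comprise 15 glycolytic enzymes, 26 other targets of the hypoxia-inducible factors (HIF) and 3 regulators of that pathway, Hif1a, Epas1 and Vhl. Of these, 43 had a named probe that was well above background on at least 1 array, among 9966 such genes of 16580 named genes in all, and 42 were well above background on all 4 arrays. Egln1, which encodes an oxygen-sensing prolyl hydroxylase, had no named probe, so it has no expression value here and enters the promoter counts only.

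The 4 groups compared were KO vessels with angiotensin II (Ang II), KO control vessels, WT vessels with Ang II and WT control vessels, where KO rats carry the PKCbeta deletion, WT rats are Wistar rats and Ang II, a vasoconstrictor peptide, was given for 24 h. All rats were male, and 4 animals of each genotype are stated. Each group had 1 one-colour Agilent array of total RNA, and the labels do not say whether an array holds 1 animal or a pool. They also leave out the rats' age, which vessel was taken, and whether the deletion affects every cell type. With 1 array a group no single comparison can be tested, so each difference below is a value without a replicate check.

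HIF is a transcription factor made of an oxygen-sensitive alpha subunit (Hif1a or Epas1) and a stable partner. In normal oxygen, prolyl hydroxylases such as Egln3 mark the alpha subunit for destruction by the Vhl ubiquitin ligase, and in low oxygen the subunit persists and binds hypoxia response elements. Its targets include nearly every glycolytic enzyme, glucose and lactate transporters, kinases that divert pyruvate from mitochondria, mitophagy proteins and feedback regulators. Ang II is known to raise HIF activity in cultured vascular smooth muscle cells without a fall in oxygen.

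The deleted gene itself, Prkcb, was read by a pair of probes. The first had a processed signal of 1.89 on the KO Ang II array and 1.94 on the KO control array, against 18.0 on the WT Ang II array and 14.8 on the WT control array, and was well above background on the WT arrays only. The second had 1.73 and 1.90 on the KO Ang II and KO control arrays, against 12.2 and 8.27 on the WT Ang II and WT control arrays, and passed on the WT Ang II array only. The low KO readings match the labels, although where the probes lie relative to the deletion is not given. Between 40.7% and 43.6% of probes were well above background on each array, and repeated spots of 10 members had a median SD of 0.061 on the log2 scale. Above background were 9 of 9 smooth muscle markers and 8 of 10 endothelial markers (Tie1 and Emcn were not), which does not give the share of any cell type. Signals scaled to the array's 75th percentile summed to 413.3 to 749.1 over 8 fibroblast markers, against 143.2 to 219.0 over 9 smooth muscle markers. Such sums depend on each list's probes and brightest genes, so they do not compare the amounts of these cell types. All 4 arrays were on 1 slide, so position on it cannot be told apart from group. Levels below are log2 processed signals minus the array's 75th percentile, from the brightest probe of each gene, and differences are log2 ratios of KO over WT or of Ang II over control.

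**Figure D1:**
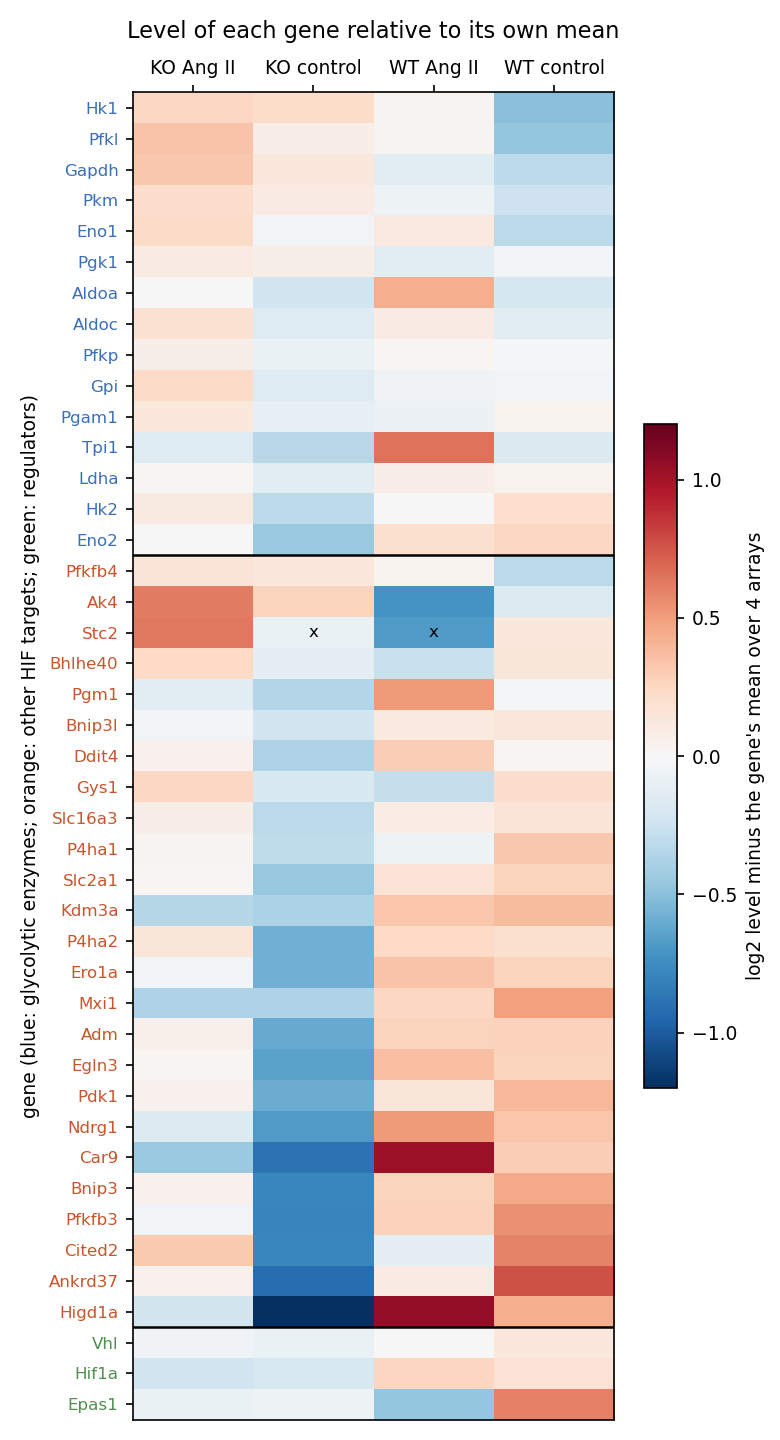
Level of each of the 43 measured members on the 4 arrays (columns), as the log2 signal minus the gene's mean over the arrays, shown as colour with the classes of genes set apart, where x marks values not well above background. The KO control column holds the lowest value of 20 of the 24 other HIF targets that were measured on all arrays, against 25.3% of all genes.

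Without Ang II, the other HIF targets were mostly lower in KO vessels than in WT vessels, whereas the glycolytic enzymes were centred near 0. The other HIF targets include transporters and regulators of glycolysis, namely Slc2a1, Slc16a3, Pfkfb3, Pfkfb4 and Pdk1, so the contrast concerns the enzymes and not the whole pathway. The median log2 ratio of the 25 other HIF targets with a ratio, Stc2 as a bound, was -0.77, with 2 above and 23 below 0, while that of the 15 glycolytic enzymes was -0.035, with 6 above and 9 below 0. Among all named genes the median was 0.0062, with 50.5% above and 49.5% below 0. Of the other HIF targets, 16 were at least 1.5-fold lower and none was 1.5-fold higher, against 13% of all genes lower and 11.1% higher, and 7 were at least 2-fold lower and none 2-fold higher, against 4.06% and 2.92% of all genes. Since each array reads RNA of vessel tissue, fewer cells of a type and less RNA per cell cannot be told apart.

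Promoter windows are shown for 4 of the 7 members at least 2-fold lower in KO control than in WT control vessels (Ankrd37, Bnip3, Pfkfb3 and Higd1a) and, for contrast, for Hk1, the member highest in KO. These 5 were chosen after the values and motif counts were seen. They run from 250 bases before to 50 bases after the annotated start, from RefSeq on GRCr8, in the gene's direction. Capitals mark ACGTG and GCGTG on either strand (CACGT and CACGC on the other strand), the core of the hypoxia response element, which overlaps the E-box CACGTG.
Ankrd37, chr16:53001257-53001556, plus strand: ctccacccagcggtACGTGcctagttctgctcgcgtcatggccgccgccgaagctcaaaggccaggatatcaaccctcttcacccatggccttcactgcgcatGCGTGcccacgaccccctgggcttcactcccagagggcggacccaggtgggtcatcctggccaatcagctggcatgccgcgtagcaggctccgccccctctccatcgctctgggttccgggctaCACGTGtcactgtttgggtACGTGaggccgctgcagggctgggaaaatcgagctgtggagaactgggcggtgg
Bnip3, chr1:203154913-203155212, minus strand: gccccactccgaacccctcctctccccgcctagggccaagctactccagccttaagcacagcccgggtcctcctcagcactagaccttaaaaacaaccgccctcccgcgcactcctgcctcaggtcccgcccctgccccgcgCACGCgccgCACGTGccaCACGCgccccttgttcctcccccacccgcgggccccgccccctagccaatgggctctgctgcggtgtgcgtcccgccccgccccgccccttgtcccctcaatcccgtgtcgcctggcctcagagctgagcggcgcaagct
Pfkfb3, chr17:71944683-71944982, plus strand: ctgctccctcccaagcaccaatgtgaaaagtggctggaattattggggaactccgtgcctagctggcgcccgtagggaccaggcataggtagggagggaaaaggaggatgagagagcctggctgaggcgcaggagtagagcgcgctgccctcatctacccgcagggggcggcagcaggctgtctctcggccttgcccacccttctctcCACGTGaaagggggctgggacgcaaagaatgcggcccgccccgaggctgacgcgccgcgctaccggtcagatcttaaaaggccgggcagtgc
Higd1a, chr8:130400839-130401138, minus strand: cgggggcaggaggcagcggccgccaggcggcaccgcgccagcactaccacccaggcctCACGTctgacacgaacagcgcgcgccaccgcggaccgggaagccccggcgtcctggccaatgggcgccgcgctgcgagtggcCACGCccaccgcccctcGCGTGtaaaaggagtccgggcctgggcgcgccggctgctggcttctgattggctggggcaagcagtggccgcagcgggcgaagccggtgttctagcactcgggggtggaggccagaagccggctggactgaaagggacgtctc
Hk1, chr20:30874765-30875064, minus strand: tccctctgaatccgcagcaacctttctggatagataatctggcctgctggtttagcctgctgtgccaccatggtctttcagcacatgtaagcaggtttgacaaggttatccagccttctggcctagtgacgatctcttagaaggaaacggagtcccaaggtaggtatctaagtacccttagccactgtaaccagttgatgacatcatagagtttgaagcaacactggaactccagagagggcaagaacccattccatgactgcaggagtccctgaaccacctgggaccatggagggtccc

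The counts of motifs in these windows were 5 for Ankrd37, 4 for Bnip3, 2 for Pfkfb3, 3 for Higd1a and 0 for Hk1, with CACGTG counted on both strands. Of members not shown, Cited2 had 2 and Car9 had 1, and Pfkl, the next highest in KO control vessels, had 2. Over the members, 40 of 44 had a window (Pgk1, Bnip3l, Ndrg1 and Ero1a are named only). The 40 include Egln1, which has ACGTG in its window but no named probe. ACGTG on either strand was found in 15 of 23 other HIF targets (65.2%) and 6 of 14 glycolytic enzymes (42.9%), against 25.6% of the windows of detected genes and 19.7% of all windows. Either motif was found in 73.9% and 64.3% of the 2 classes, against 61.1% and 42.9% of windows. Median GC content was 66% for other HIF targets and 62% for glycolytic enzymes, against 60.7% for detected genes. A match is a description of letters and not a site, and the window's start may not be that of the probe's transcript.

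Among the other HIF targets, Higd1a and Ankrd37 had the largest gaps. Higd1a, which encodes a mitochondrial inner membrane protein, stood at a level of -0.17 on the KO Ang II array and -1.21 on the KO control array, against 1.11 on the WT Ang II array and 0.49 on the WT control array. It was 3.25-fold lower in KO control than in WT control vessels. The Higd1a probe was dim, with 1 spot on each array and processed signals of 20.4 on the KO control array and 82.2 on the WT control array. Ankrd37, an ankyrin repeat protein and a direct HIF1 target, was at 3.22 and 2.26 on the KO Ang II and KO control arrays, and at 3.27 and 3.94 on the WT Ang II and WT control arrays. Its KO control level was 3.20-fold lower than its WT control level, and with Ang II the log2 ratio of KO over WT was -0.05.

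The mitophagy receptor Bnip3 read 6.15 with Ang II and 5.31 without it in KO vessels, against 6.37 with and 6.55 without in WT vessels. Pfkfb3, whose enzyme makes the activator of phosphofructokinase, stood at 6.98 and 6.23 in KO Ang II and KO control vessels, against 7.30 and 7.57 in WT Ang II and WT control vessels. Both were lowest on the KO control array, by 2.36-fold for Bnip3 and 2.54-fold for Pfkfb3 against WT control. Cited2, which competes with HIF for its coactivator, was at -0.94 and -2.03 in KO Ang II and KO control vessels, against -1.36 and -0.65 in WT Ang II and WT control vessels. That put KO control 2.60-fold below WT control. The Cited2 probe was dim, with 1 spot on each array and processed signals of 11.6 on the KO control array and 37.3 on the WT control array. Car9, a cell surface carbonic anhydrase, and Ndrg1, a stress-responsive differentiation gene, were lower in KO vessels under both conditions. Car9 was at 1.27 and 0.83 in KO Ang II and KO control vessels, against 2.76 and 2.01 in WT Ang II and WT control vessels. Ndrg1 read 3.39 and 2.88 in KO Ang II and KO control vessels, against 4.07 and 3.89 in WT Ang II and WT control vessels.

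The glycolytic enzymes lay on both sides of 0. Hk1, the constitutive hexokinase, was the member highest in KO relative to WT without Ang II, at 1.2 and 1.17 in KO Ang II and KO control vessels, against 0.99 and 0.45 in WT Ang II and WT control vessels. Pfkl, the liver type subunit of phosphofructokinase, read 4.33 and 4.07 in KO Ang II and KO control vessels, against 4.02 and 3.53 in WT Ang II and WT control vessels. Hk1 was 1.65-fold higher in KO control vessels and was the single member past 1.5-fold upwards, and Eno2, an enolase isoform, at -0.69, was the single glycolytic enzyme past 1.5-fold downwards. Gapdh, the glycolytic enzyme of largest mean signal, was at 8.90 and 8.70 in KO Ang II and KO control vessels, against 8.44 and 8.27 in WT Ang II and WT control vessels. The lactate-forming Ldha was at -0.17 and the muscle pyruvate kinase Pkm at 0.35 as log2 ratios of KO control over WT control. Among the other HIF targets, Pfkfb4, a relative of Pfkfb3, ran the other way from it, at 0.83 and 0.80 in KO Ang II and KO control vessels, against 0.72 and 0.35 in WT Ang II and WT control vessels.

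**Figure D2:**
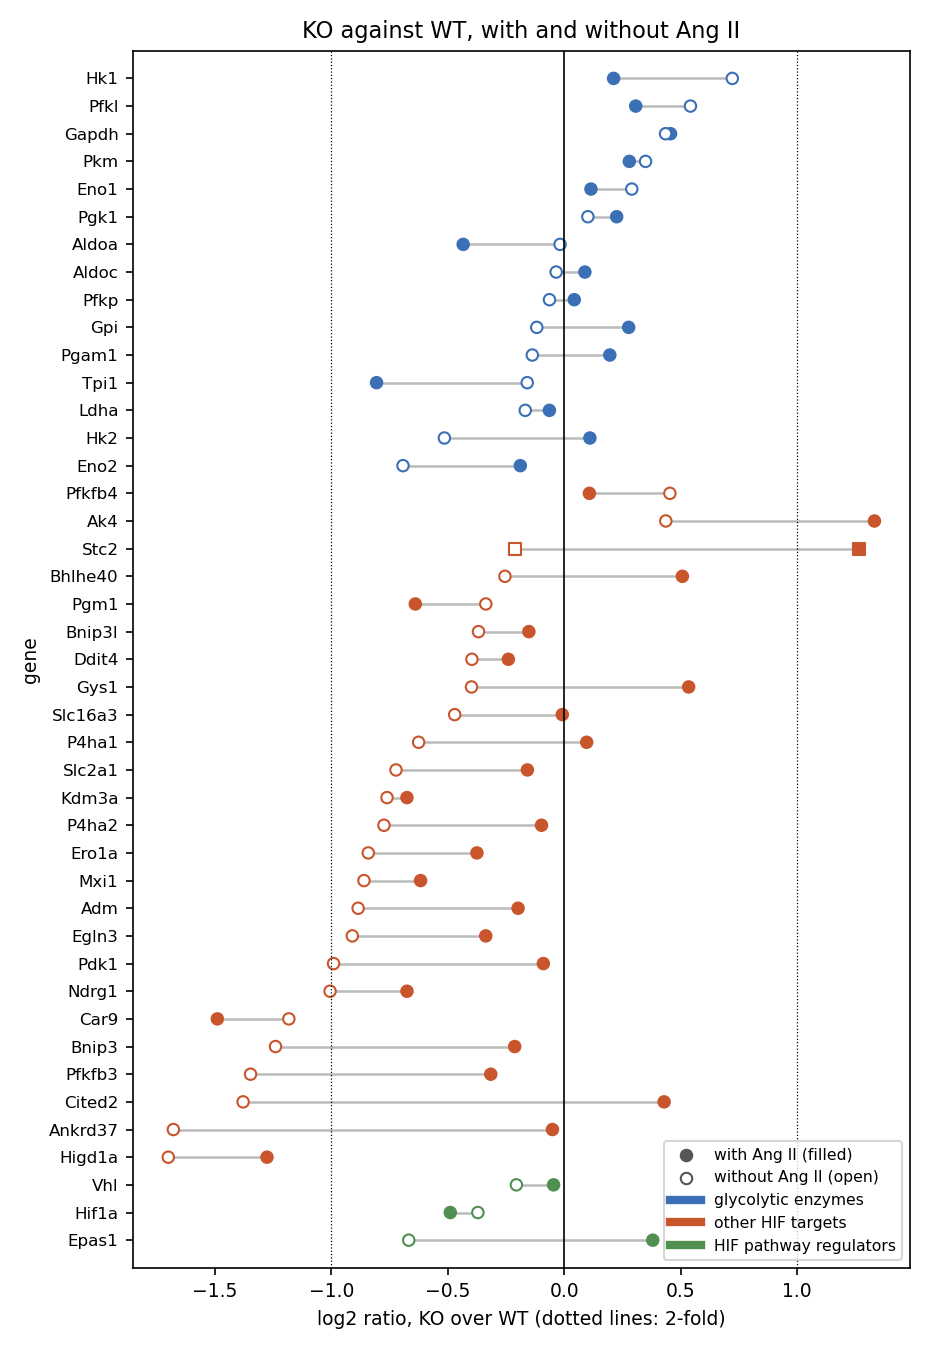
Log2 ratio of KO over WT for each member, with Ang II and without it, with classes of genes set apart and squares marking values known only as bounds because one array was not well above background. Filled marks are with Ang II and open marks without it, and dotted lines mark 2-fold. With Ang II 2 of the other HIF targets lie beyond the lower line, and without it 7 do.

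Under Ang II the gap between genotypes was smaller for the other HIF targets. Their median log2 ratio was -0.16, with 7 above and 18 below 0, against 46.2% of all genes above and 53.8% below. At least 1.5-fold lower in KO vessels were 6 of them, and 2 were 1.5-fold higher, against 15.8% and 9.21% of all genes. The glycolytic enzymes had a median of 0.11, with 11 above and 4 below 0, and the median of all genes was -0.04. Past 2-fold were 2 members in each direction, against 5.21% of all genes lower and 1.95% higher. Car9 was 2.81-fold lower and Higd1a 2.42-fold lower in KO vessels with Ang II. Ak4, a mitochondrial adenylate kinase, was 2.52-fold higher, at 1.5 and 1.15 in KO Ang II and KO control vessels, against 0.17 and 0.72 in WT Ang II and WT control vessels. Tpi1, the triose phosphate isomerase of glycolysis, was at 1.65 and 1.47 in KO Ang II and KO control vessels, against 2.46 and 1.63 in WT Ang II and WT control vessels. Car9, Higd1a and Tpi1 were thus highest on the WT Ang II array, and Ak4 lowest there. Stc2, a secreted glycoprotein, read -1.86 and -2.58 in KO Ang II and KO control vessels, against -3.17 and -2.36 in WT Ang II and WT control vessels. It was well above background on the KO Ang II and WT control arrays only, so its folds are bounds. With Ang II it was at least 2.41-fold higher in KO than in WT vessels, and without Ang II at least 1.16-fold lower. Ang II over control was at least 1.64-fold higher in KO vessels and at least 1.70-fold lower in WT vessels for Stc2.

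In KO vessels, all 15 glycolytic enzymes and all 25 other HIF targets with a ratio were higher with Ang II on their brightest probes. Stc2 was a bound, and 48.9% of all genes were higher and 51.1% lower. The smallest of these differences, for Mxi1, was a log2 ratio of 0.002, and the second Mxi1 probe gave -0.22. The median log2 ratio was 0.22 for the glycolytic enzymes and 0.48 for the other HIF targets, with all genes centred near 0. Of the members, 10 were at least 1.5-fold higher and none lower, against 3.23% of all genes higher and 3.93% lower, and all 10 were other HIF targets. Cited2 (2.14-fold) and Higd1a (2.06-fold) were the 2 past 2-fold upwards and none was past it downwards, against 0.443% and 1.4% of all genes. This comparison and that of KO with WT without Ang II share the KO control array, on which 20 of 24 other HIF targets and 9 of 15 glycolytic enzymes had their lowest level, against 25.3% of all genes. A low reading on that array enters both comparisons. The highest level fell on the KO Ang II array for 10 of 15 glycolytic enzymes, against 20.2% of all genes. For the other HIF targets it fell on the WT control array for 12 of 24 and on the WT Ang II array for 8, against 20.1% and 32.2%. The median of 8 endothelial markers had the same signs as that of the other HIF targets, at 0.34 for Ang II over control in KO vessels and -0.13 in WT vessels. Of the white adipocyte markers, Pparg was the single one measured on both KO arrays and Adipoq and Retn gave bounds, all 3 above 0 for Ang II over control, and the 4 measured in WT vessels were below 0. Their part in the members' values was not tested.

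In WT vessels the same genes had no common direction under Ang II. The median log2 ratio of the other HIF targets was -0.062, with 9 above and 16 below 0 against 55.1% and 44.9% of all genes, and that of the glycolytic enzymes was 0.18, with 10 above and 5 below. At least 1.5-fold higher were 4 members and at least 1.5-fold lower were 4, against 8.8% and 4.89% of all genes. Tpi1 at 0.83 and the muscle aldolase Aldoa at 0.64 were the 2 glycolytic enzymes past 1.5-fold. Aldoa read 4.96 and 4.74 in KO Ang II and KO control vessels, against 5.40 and 4.76 in WT Ang II and WT control vessels. Cited2 at -0.71 and Ankrd37 at -0.66 were lower with Ang II. No member was 2-fold higher, against 2.02% of all genes.

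**Figure D3:**
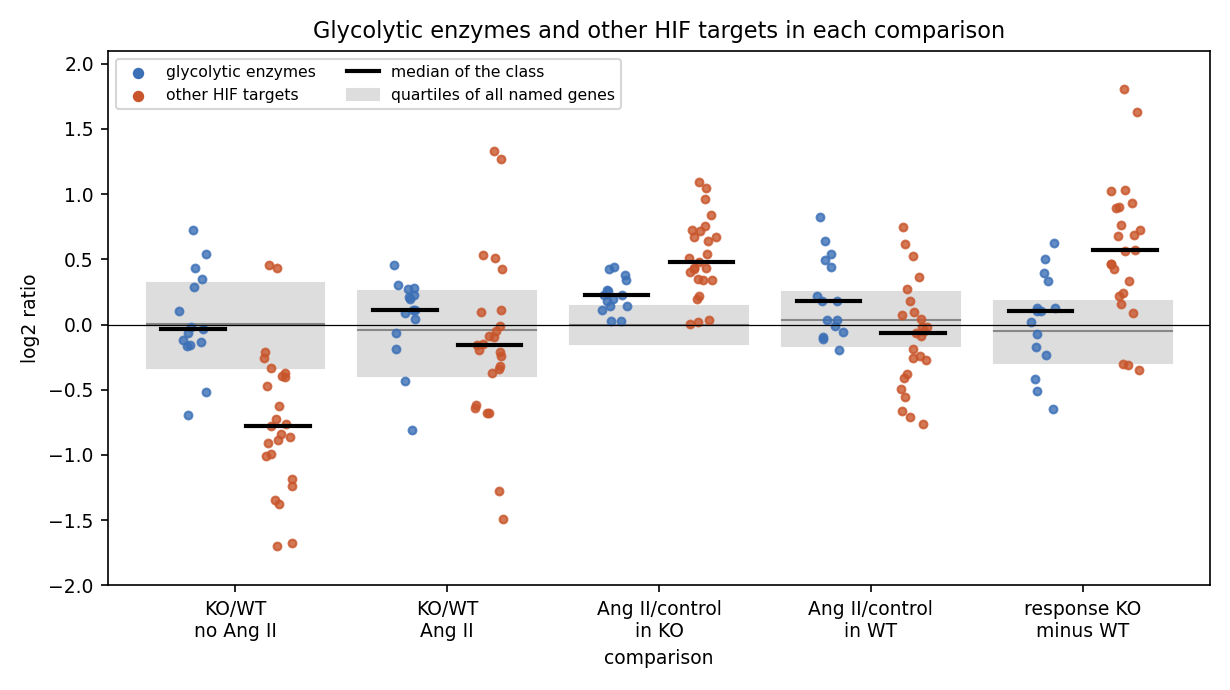
Log2 ratio of each glycolytic enzyme and each other HIF target (points) in the 5 comparisons, with the class median (bars) and the quartiles of all named genes (grey bands). The other HIF targets lie at a median of -0.77 for KO over WT without Ang II and of 0.48 for Ang II over control in KO vessels, whereas the glycolytic medians lie between -0.035 and 0.22 in all 5.

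The log2 ratio of Ang II over control was higher in KO than in WT vessels for 21 of the 24 other HIF targets measured on all arrays. The median difference between the 2 log2 ratios was 0.57. Among glycolytic enzymes it was higher in KO for 9 of 15, with a median difference of 0.10. Of all genes, 44% had a higher log2 ratio in KO and 56% a lower one. The difference is signed, so a fall with Ang II in WT vessels raises it, as for Epas1 (-0.024 in KO and -1.07 in WT vessels). Differences of at least 1.5-fold in the direction of KO were seen for 13 members, against 6.24% of all genes, and in the direction of WT for 1 member, Tpi1, against 10.2%. Cited2 (1.81), Ankrd37 (1.63), Epas1 (1.05), Bnip3 (1.03) and Pfkfb3 (1.03) were past 2-fold, against 1.27% of all genes, and none was past it the other way, against 2.87%. On their second probes Bnip3 gave 0.42 and Pfkfb3 0.88, both short of 2-fold. Bhlhe40, a transcriptional repressor, read 2.80 and 2.45 in KO Ang II and KO control vessels, against 2.30 and 2.71 in WT Ang II and WT control vessels. Gys1, the muscle glycogen synthase, read 3.85 and 3.42 in KO Ang II and KO control vessels, against 3.32 and 3.82 in WT Ang II and WT control vessels. Both were higher with Ang II in KO vessels and lower with Ang II in WT vessels. This difference uses all 4 arrays and has no error from replicates.

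The other members can be summarised by role. The values in this paragraph are log2 ratios of KO over WT. Egln3, a prolyl hydroxylase that feeds back on HIF, was at -0.34 with Ang II and -0.91 without it. Kdm3a, a histone demethylase, was at -0.68 with and -0.76 without. Among the collagen-modifying enzymes, P4ha1 and P4ha2, subunits of prolyl 4-hydroxylase, were at -0.63 and -0.77 without Ang II. The vasodilator peptide Adm and the oxidase of disulphide bond formation Ero1a were at -0.89 and -0.84, and all 6 of these genes were lower in KO control vessels. Ddit4, an inhibitor of mTOR signalling, Bnip3l, a relative of Bnip3, and Pgm1, a phosphoglucomutase, were closer to 0, at -0.40, -0.37 and -0.34. Slc2a1, the glucose transporter, Slc16a3, the lactate exporter, and Pdk1, which inhibits pyruvate dehydrogenase, were at -0.72, -0.47 and -0.99 without Ang II. With Ang II all 3 lay nearer 0, at -0.16, -0.0084 and -0.09. Along the glycolytic pathway without Ang II, Hk2, the inducible hexokinase, was at -0.51 and Gpi, the phosphoglucose isomerase, at -0.12. The platelet phosphofructokinase Pfkp and the aldolases Aldoa and Aldoc were between -0.064 and -0.018. In the later steps of the pathway, Pgam1, the phosphoglycerate mutase, was at -0.14, Pgk1, the phosphoglycerate kinase, at 0.10 and Eno1, the main enolase, at 0.29.

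Of the 3 pathway regulators, Hif1a was lower in KO vessels, at 5.35 and 5.39 with and without Ang II, against 5.84 and 5.76 with and without it in WT vessels. Epas1, the other alpha subunit, read -0.14 and -0.12 in KO Ang II and KO control vessels, against -0.52 and 0.55 in WT Ang II and WT control vessels. Its WT Ang II level was 2.1-fold below its WT control level, the single member past 2-fold downwards in that comparison, where 0.999% of all genes were. The Epas1 probe too had 1 spot on each array, with processed signals of 43.5 on the WT Ang II array and 86.0 on the WT control array. Vhl, the ubiquitin ligase subunit, was at 4.93 and 4.90 in KO Ang II and KO control vessels, against 4.98 and 5.10 in WT Ang II and WT control vessels.

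Members with several probes show how far these values depend on the probe chosen. Of the members, 10 had at least 2 measured probes. For Gapdh, 8 probes gave log2 ratios of KO over WT with Ang II of 0.46, 0.42, 0.32 and 0.38 for the 4 brightest and -0.27, -0.32, -0.23 and -0.19 for the 4 dimmest. The sign of the Gapdh difference therefore turned with the probe. Bnip3's second probe gave -1.28 with and -1.70 without Ang II, whereas its brightest gave -0.21 with and -1.24 without. Pfkfb3's second probe gave 0.47 with and -0.41 without Ang II, whereas its brightest gave -0.32 with and -1.35 without. The 3 probes of Pdk1 all lay below 0 without Ang II, between -1.18 and -0.96. Signs without Ang II turned with the probe for Ddit4 (-0.40 and 0.25), for Ldha (-0.17, 0.11 and -0.68) and for Eno1 (0.29, 0.28 and -0.34), each given brightest first. The 8 Gapdh probes then ranged from -0.33 to 0.54. For Mxi1, an antagonist of Myc, the second probe ran opposite to the first, at 0.52 with and 0.40 without Ang II, whereas the first gave -0.62 with and -0.86 without. Over the 10 members, the dimmest probe minus the brightest had a median of -0.37 for KO over WT with Ang II, below 0 for 7, against 0.017 over 1611 genes with several probes. Without Ang II that median was 0.0026. For the difference of responses it was -0.21, below 0 for 8 of the 10 members, against -0.014 over the 1611 genes. The median standard deviation between probes of a gene, over those 1611 genes, was 0.26 with Ang II and 0.21 without it.

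**Figure D4:**
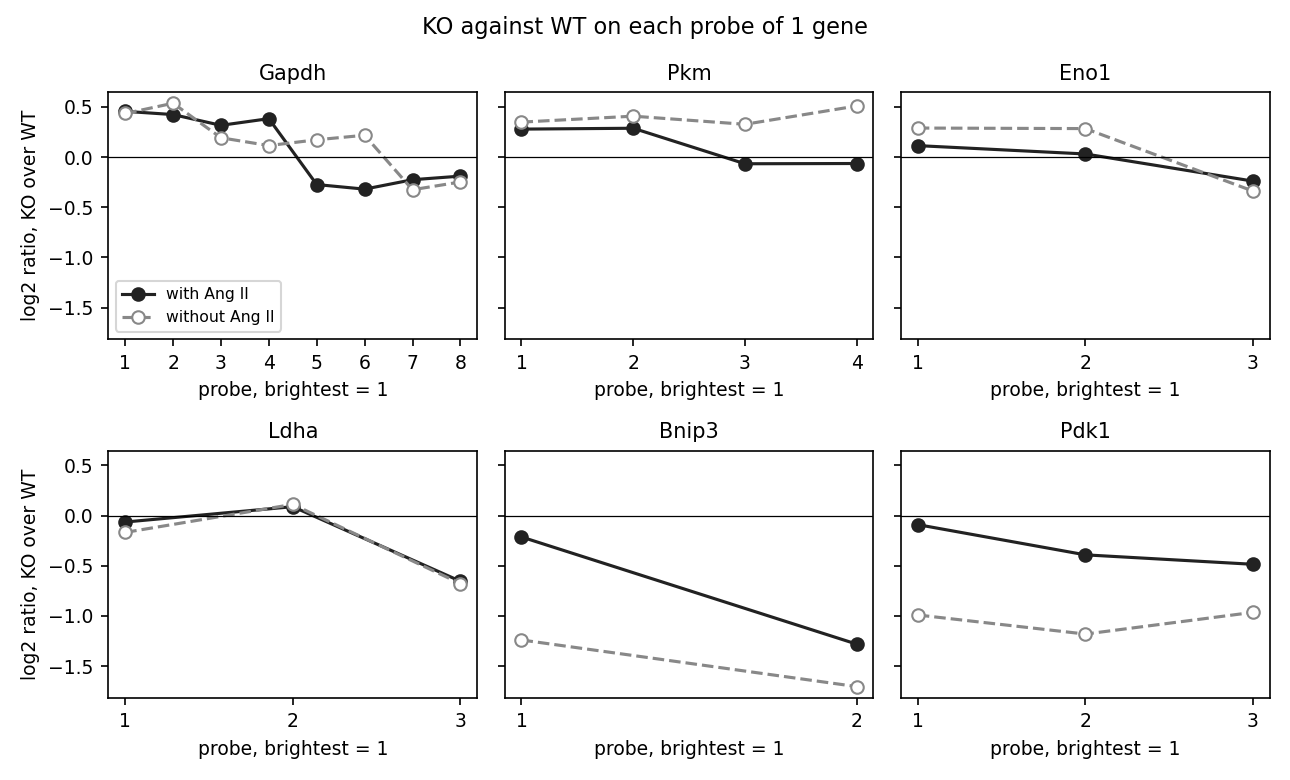
Log2 ratios of KO over WT for each measured probe of 6 members with several probes, brightest first, with Ang II (filled) and without it (open). The 8 probes of Gapdh lie on both sides of 0 with Ang II, and the 3 of Pdk1 all lie below 0 without it.

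A fit of genotype and treatment as additive terms across all 4 arrays, in limma with Benjamini-Hochberg adjustment over 9387 genes, leaves 1 residual degree of freedom. It takes any difference of Ang II response between the genotypes as error. Members with a large one, such as Cited2 (genotype SE 0.47) and Ankrd37 (SE 0.43), had large errors, so a lack of calls says little about them. The fit called 0 of 43 members for genotype, against 0 of 9387 genes. At an unadjusted p under 0.05 were 12 members, against 26.1% of all genes, so the members' share was near the background in this setting. The smallest adjusted p of a member was 0.098 in limma, for Higd1a (-1.49, SE 0.18) and Car9 (-1.34, SE 0.17). For treatment it called 0 members and 0 of all genes, with 2 members at an unadjusted p under 0.05 (Higd1a and Car9), against 3.84% of genes. With a prior variance that follows intensity, limma called 11 members for genotype (13.9% of all genes) and 0 for treatment. Car9 (adjusted p = 0.00262), Higd1a (0.00496), Ndrg1 (0.00813), Egln3 (0.0229), Pfkfb3 (0.0239), Ero1a (0.0254), Hif1a (0.0334), Bnip3 (0.0396) and Mxi1 (0.044) were lower in KO vessels in that limma fit, and Gapdh (0.0122) and Ak4 (0.0345) higher. These are values of the brightest probes, and other probes of Gapdh and Mxi1 gave the opposite sign. The second probe of Pfkfb3 had opposite signs with and without Ang II, so that call too depends on the probe. In this fit the 2 genotypes are each represented by 2 arrays, one with and one without Ang II.

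A pair of further lists from the same pathways put the members in context. Of 33 further hypoxia genes, 26 had a ratio of KO over WT with Ang II, with a median of -0.36, 7 at least 1.5-fold lower and 2 higher, against 15.8% and 9.21% of all genes. Without Ang II 25 had a ratio, with a median of -0.50, 10 lower and 3 higher, against 13% and 11.1% of all genes. Their medians of Ang II over control were 0.20 in KO and 0.12 in WT vessels. The difference of responses had a median of 0.03, with 13 above and 9 below 0, beside 0.57 for the other HIF targets among the members. Ccng2, a cyclin G, was 2.32-fold lower with and 3.47-fold lower without Ang II in KO vessels, and P4hb, the protein disulphide isomerase subunit of prolyl hydroxylase, was 2.49-fold lower with and 2.44-fold lower without it. Angptl4, an inhibitor of lipoprotein lipase, was 2.16-fold lower in KO vessels with Ang II, and Vldlr, a lipoprotein receptor, was 2.41-fold lower without it. Stc1, a secreted hormone, was 2.14-fold higher in KO than in WT vessels without Ang II, and in WT vessels 2.73-fold higher with Ang II than without. Fut11, a fucosyltransferase, was 2.50-fold higher in KO vessels with Ang II, taken against its own dim reading on the WT Ang II array. Of 24 further glycolysis genes, 18 had a ratio, with medians of -0.17 with and -0.13 without Ang II. Pygl, the liver glycogen phosphorylase, was lower in KO vessels by at least 2.05-fold with Ang II and at least 3.33-fold without it, and Slc2a3, a glucose transporter, was 2.51-fold lower with Ang II.

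Markers of other cells in the vessel wall differed between the same arrays. Without Ang II the median log2 ratio of KO over WT was -0.74 for macrophage markers, of which 8 of 8 measured on all arrays were lowest on the KO control array, as the other HIF targets tended to be. Their summed scaled signal was 39.6 and 31.1 on the KO Ang II and KO control arrays, against 60.8 and 56.2 on the WT Ang II and WT control arrays, and Mrc1 was not well above background. Endothelial markers had a median of -0.12 with Ang II and -0.58 without it, and fibroblast markers -0.75 with and -0.51 without. Smooth muscle markers ran the other way, at 0.53 with and 0.61 without Ang II, with 8 of 9 above 0 in each case. The exceptions were Lmod1 at -0.26 with Ang II and Des at -1.11 without it. For macrophage markers the Ang II over control medians were 0.32 in KO and 0.12 in WT vessels. Cell cycle genes had medians of -1.40 with and -1.81 without Ang II over 6 genes, of which Cdk1 was a bound with Ang II and Cdk1 and Ccna2 were bounds without it. Of 4 white adipocyte markers, all below 0, Fabp4 was a bound with Ang II and Adipoq, Fabp4 and Retn were bounds without it. Without Ang II, Fabp4 was at least 3.48-fold lower. Adipoq was 5.05-fold and Retn 4.11-fold lower, both taken against their own dim readings. Erythrocyte genes were at -0.27 with and 0.12 without Ang II, and 3 skeletal muscle markers at 0.48 under both. At most 2 markers of each remaining list entered a median as a bound. The part of these differences in the members' values was not tested.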

How the data were processed

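RNA of vessels from 4 groups was hybridised to 1 one-colour Agilent array each. Per the file headers, the deposited intensity of each spot is a processed signal that is background-corrected by Agilent Feature Extraction, version 10.7.1.1 (12.1.1.1 per the submitters' processing notes). The deposited value table, a log2 scale, equalled log2 of that intensity plus a constant on each array, within 0.01 for 98.3% to 98.4% of probes. The deposited flags marking spots well above background and outliers were used to filter. Control spots and outlier spots were left out, log2 intensity minus the array's 75th percentile was taken, and the brightest probe of each gene was used, with symbols from RefSeq (21107 of 45594 probes named). Where 1 side was not above background the fold is a bound, computed against the higher of the dim probe's own signal and the lowest signal among probes above background. Where the probe's own signal was the higher, the bound is a plain ratio to that signal and not a firm limit. Fits used limma 3.58.1 in R 4.3.3 and Python 3.11.15 with pandas 2.3.3 and numpy 2.4.6, and the fit was tested on simulated data. The members and lists were chosen with earlier results of these data known. Values on every array are given for the 3 members with the largest ratio in each direction of each comparison, all past 2-fold or given as bounds, the 3 regulators and the brightest glycolytic enzyme. Of the further lists, those past 2-fold are named with their folds, at most 6 each. The number of arrays limits the precision. Alternatives were normexp, quantile and other scalings, other filters and other probe choices.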

Additional observations from a re-analysis of the deposited data

Results flagged for a closer look

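The other HIF targets had a median log2 ratio of Ang II over control of 0.48 in KO vessels and -0.062 in WT vessels, values of opposite sign. Ankrd37 likewise differed in sign, at 0.97 in KO and -0.66 in WT vessels, and so did Cited2, at 1.1 in KO and -0.71 in WT vessels. The glycolytic enzymes had a median log2 ratio of KO over WT of 0.11 with Ang II and -0.035 without it. In each case the difference was not tested, because each side is 1 array. The KO control array enters the KO comparison and the comparison without Ang II alike.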

How the results depend on the processing

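The median of the other HIF targets kept its sign in all 10 alternatives of each comparison, ranging from -0.25 to -0.098 for KO over WT with Ang II, from -0.85 to -0.72 without it, from 0.46 to 0.48 for Ang II in KO vessels, from -0.14 to -0.017 in WT vessels and from 0.47 to 0.68 for the difference of responses. The median log2 ratio of glycolytic enzymes, Ang II against control in WT, was 0.45 with the dimmest measured probe of each gene, chosen after seeing the data, against 0.18 with the brightest; the cause was not tested. It was 0.075 with quantile normalization and 0.038 in a broader class of 20 genes that adds transporters and regulators. With normexp the glycolytic median for KO over WT with Ang II was -0.014 and for the difference of responses -0.0057, both near 0. In limma with a prior variance that follows intensity, 11 members passed an adjusted p of 0.05 for genotype, against 0 without it, and 1307 of all genes did. For treatment, 11 of 43 members had an unadjusted limma p under 0.05 with that prior and 11 with normexp, against 329 and 323 of 9387 genes. For genotype, normexp put 20 of 43 members under that unadjusted level, against 2534 of 9387 genes. The members' shares near the background therefore hold for the main setting and not for these. Counts moved by over 1.5 times as follows. At least 1.5-fold higher members numbered 1 to 2 for KO over WT with Ang II and 0 to 1 without it, 6 to 10 for Ang II in KO vessels, and 2 to 5 higher and 1 to 5 lower for Ang II in WT vessels, where 3 scalings gave 3 higher and 5 lower. At least 2-fold higher members numbered 0 to 2 and lower 1 to 3 for KO over WT with Ang II, and 0 to 2 higher for Ang II in KO vessels, 0 to 1 lower in WT vessels. For the difference of responses, 1 to 2 members were 1.5-fold lower and 3 to 6 at least 2-fold higher. Without a filter on dim probes the median of all genes was 0.17 for KO over WT without Ang II. No paired analysis was possible because each group has 1 array with replicate number 1, and leaving out a replicate would empty a group. A ratio is a bound at most where either array compared was not well above background, as for Stc2 and for Prkcb between genotypes. Cited2 passed on all 4 arrays, but from 1 spot each and at low processed signals. These were 27.2 and 11.6 on the KO Ang II and KO control arrays, and 24.2 and 37.3 on the WT Ang II and WT control arrays. Its large ratios thus rest on values near background.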

Other observations

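Vegfa, the angiogenic HIF target, was named after its values were seen. Its log2 ratio of KO over WT was 0.30 with Ang II and -0.60 without it, and of Ang II over control 0.49 in KO and -0.40 in WT vessels. The summed scaled signal of fibroblast markers was 413.3 and 464.7 on the KO Ang II and KO control arrays, against 749.1 and 722.8 on the WT Ang II and WT control arrays.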
